A study of Mus musculus with 29 samples.

Results

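The 10 genes described here encode enzymes and chaperones of collagen maturation: P4ha1, P4ha2, P4ha3, Plod1, Plod2, Serpinh1, Fkbp10, Crtap, Pcolce and Bmp1. They were taken by symbol from the 55401 gene rows of the deposited count matrices, each symbol matched 1 row, and all 10 passed the filter on low counts in both fits. The libraries come from mesenchymal cells sorted from the common bile duct of individual mice, about 1000 cells per duct, in 29 libraries and 9 groups. In 6 mice, cells were traced by Gli1:CreERT2 with the Rosa26:lox-STOP-lox-tdTomato reporter, 3 uninjured and 3 labelled 4d BDL, read here as day 4 after bile duct ligation. In 23 mice Pdgfra:CreERT2 drove recombination with the same reporter: 5 wild type, 4 SmoFF, 3 SmoM2, 3 Ctnnb1FF, 2 Gli2FF, 2 Gli3FF and 4 Gli2FFGli3FF. SmoFF, Ctnnb1FF, Gli2FF and Gli3FF are conditional (floxed) alleles of the Hedgehog signal transducer Smo, of beta-catenin and of the Hedgehog transcription factors Gli2 and Gli3, and SmoM2 is a constitutively active Smo. All mice, controls included, carry a Cre and the reporter; age and the dosing of the inducer were not given in the sources used here. Because sorting fixed the number of cells, not their make-up, fewer cells of a type and less RNA per cell cannot be told apart in these bulk libraries.

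Fibrillar procollagen is modified while it is made in the endoplasmic reticulum. Prolyl 4-hydroxylases convert proline to 4-hydroxyproline, which stabilises the triple helix, and lysyl hydroxylases prepare lysines for glycosylation and cross-linking. A complex of a prolyl 3-hydroxylase, Crtap and a cyclophilin modifies single prolines and assists folding, and dedicated chaperones hold the folded helix until it leaves for the Golgi. Outside the cell the C-propeptide is removed before fibrils form. In the bile duct wall these steps serve the fibroblasts of the periductal stroma, which expand their matrix when bile flow is blocked.

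The promoter sequence was available for 7 of the 10 genes, from RefSeq on GRCm38.p6, as the 250 bases before the start annotated there. For P4ha2 and Pcolce this window lies inside the gene by the GENCODE M21 positions given further on, so it is not upstream of every annotated start. The 4 printed here belong to the genes that were lower in Gli2FFGli3FF cells under every alternative tried (values further on), and were chosen for that after the values were seen. Each reads 5′ to 3′ on its gene's strand; capitals mark ACGTG (the core of hypoxia response elements) and GGGCGG (the GC box), on either strand. P4ha2 lies at chr11:54100674-54100923 on the forward strand, Plod1 at chr4:147936777-147937026, Serpinh1 at chr7:99353240-99353489 and Crtap at chr9:114390713-114390962, these 3 on the reverse strand.
P4ha2: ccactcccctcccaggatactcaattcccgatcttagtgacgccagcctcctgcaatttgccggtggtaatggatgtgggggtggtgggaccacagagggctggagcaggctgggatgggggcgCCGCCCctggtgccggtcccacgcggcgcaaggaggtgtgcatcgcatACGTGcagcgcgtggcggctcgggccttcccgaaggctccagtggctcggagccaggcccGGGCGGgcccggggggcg
Plod1: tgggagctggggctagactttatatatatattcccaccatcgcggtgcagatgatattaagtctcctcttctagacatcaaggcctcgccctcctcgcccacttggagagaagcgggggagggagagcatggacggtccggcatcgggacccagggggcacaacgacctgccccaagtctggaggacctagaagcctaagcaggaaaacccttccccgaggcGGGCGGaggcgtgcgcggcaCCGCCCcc
Serpinh1: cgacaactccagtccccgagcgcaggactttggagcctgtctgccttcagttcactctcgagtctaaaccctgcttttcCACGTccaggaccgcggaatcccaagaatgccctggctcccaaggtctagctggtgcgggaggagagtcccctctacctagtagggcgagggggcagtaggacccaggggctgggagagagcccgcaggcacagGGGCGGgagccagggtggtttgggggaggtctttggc
Crtap: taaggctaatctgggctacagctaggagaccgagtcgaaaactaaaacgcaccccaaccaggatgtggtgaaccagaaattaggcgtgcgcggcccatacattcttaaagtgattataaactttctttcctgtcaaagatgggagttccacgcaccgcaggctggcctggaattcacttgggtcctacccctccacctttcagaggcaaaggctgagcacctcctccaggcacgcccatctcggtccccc
GGGCGG was found in 6 of the 7 matched promoters, all but Crtap, against 32.7% of the 32851 promoters in the table. Those 6 held 58.8% to 70% G or C and Crtap 53.6%, where the median over all promoters was 52.4%. The part of base composition in these matches was not tested. ACGTG was found in 3 of 7, those of P4ha1, P4ha2 and Serpinh1, against 16.6% of all promoters. In Serpinh1 it began 171 bases before the start site and in P4ha2 78 bases before it. None of the 7 held GACCACCCA, the core bound by Gli proteins, which 0.225% of all promoters held, GAANNTTC, a heat shock element (6.69%), or CCAAT (33.8%). All motifs were searched on both strands, and neighbouring ACGTG and GGGCGG matches can share at most 1 base. A match is a description of letters and not of binding, and no match says only that the letters are missing from this window.

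Library totals ran from 15021796 to 38301189 counts. One ribosomal RNA locus took 2.37% to 3.87% of counts in Gli1 libraries and 8.56% to 50.0% in Pdgfra libraries, highest in Gli2FFGli3FF (38.4% to 50.0%, against 13.4% to 29.4% in wild type). Between 15892 and 28796 genes were detected per library. The 10 genes together took 0.0918% to 0.555% of counts. Pdgfra itself was present in all 29 libraries. Smo fell in SmoFF (6.81 to 9.05 CPM, counts scaled by library size, against 22.6 to 36.3 in wild type), Gli3 fell in Gli3FF (12.3 to 14.4 against 30.8 to 44.9) and in Gli2FFGli3FF (2.83 to 7.63), and Gli2 fell in Gli2FFGli3FF (1.55 to 6.39 against 12.7 to 20.9). Gli2 did not pass the test in Gli2FF (6.91 to 12.8 CPM, adjusted p = 0.398), nor Ctnnb1 in Ctnnb1FF (mean 43.3 against 58.5 CPM, adjusted p = 0.108), so those labels are not checked by their own gene. Low Gli3 was not particular to Gli3FF, since Gli3 stood at 8.36 to 16.2 CPM in Ctnnb1FF. Ctnnb1 averaged 41.6 CPM in Gli3FF, so the levels of these genes do not tell Gli3FF and Ctnnb1FF apart. All 3 Ctnnb1FF libraries had Xist above 5 CPM and no Y-linked transcript above it, and all 5 wild type libraries the reverse, so in that comparison sex and genotype cannot be told apart. In Gli2FFGli3FF, Xist stood at 17.7, 32.0, 10.1 and 4.58 CPM, against 0 to 0.220 CPM in wild type. Y-linked transcripts stood at 8.47, 1.20, 17.0 and 149 CPM in Gli2FFGli3FF, against 87.0 to 206 CPM in wild type. That comparison is therefore partly confounded with sex as well, and the part of sex in it was not tested. Xist and Y-linked transcripts were both at 5 CPM or more in 2 SmoFF, 1 Gli2FF, 1 Gli3FF and 2 Gli2FFGli3FF libraries, although each library is described as 1 animal; how this arose was not tested. Wild type replicate 5 is wild type by title and genotype, while its description names the SmoFF allele; its Smo, 28.7 CPM, lay within the range of the other wild type libraries.

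In wild type Pdgfra-traced cells the chaperone Serpinh1 was by far the most abundant of the 10 per length of transcript, and the prolyl hydroxylase subunit P4ha3 the least. Mean levels in CPM per kilobase (n = 5) fell from Serpinh1 at 726 ± 64.5 (SD) over Pcolce at 223 ± 27.1, Crtap at 91.7 ± 21.0, P4ha1 at 34.4 ± 4.01 and Fkbp10 at 25.9 ± 2.25 to Bmp1 at 17.7 ± 0.980. Below these came Plod2 at 11.6 ± 2.40, P4ha2 at 11.1 ± 1.47, Plod1 at 6.91 ± 0.899 and P4ha3 at 1.46 ± 0.966. Of the neighbours in this order, P4ha1 and Fkbp10, and Plod2 and P4ha2, overlapped between libraries; the other neighbours did not. In uninjured Gli1-traced cells, which were scaled separately, the order was the same except that P4ha2 and Plod2 changed places, and those 2 overlapped.

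The catalytic alpha subunits of prolyl 4-hydroxylase lie on 3 chromosomes of mm10 as protein-coding genes: P4ha1 on chromosome 10 (59323296 to 59373304), P4ha2 on chromosome 11 (54100095 to 54131665) and P4ha3 on chromosome 7 (100285520 to 100319699). In the 5 wild type libraries P4ha1 stood at 148, 149, 158, 139 and 115 CPM. P4ha2 stood at 84.7, 64.2, 60.9, 68.0 and 68.7 CPM, and P4ha3 at 2.63, 6.25, 3.68, 1.35 and 8.92 CPM. Relative to its mean, P4ha3 varied most of these subunits between wild type animals, with a standard deviation of 3.03 around 4.57 CPM. The lysyl hydroxylases Plod1 (chromosome 4, 147909753 to 147936767), which acts on helical lysines, and Plod2 (chromosome 9, 92542223 to 92608428), which acts on telopeptide lysines, both lay low in the order. Plod1 measured 48.3, 55.4, 42.1, 39.9 and 48.1 CPM, and Plod2 measured 70.9, 49.4, 48.9, 78.0 and 64.5 CPM.

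Serpinh1 (chromosome 7, 99345376 to 99353239) encodes HSP47, the collagen-specific chaperone that binds the triple helix, and stood at 2046, 1750.2, 1740.1, 1662 and 1668 CPM. Fkbp10 (chromosome 11, 100415697 to 100424824) encodes FKBP65, a prolyl isomerase that assists folding and telopeptide lysine hydroxylation, and stood at 86.8, 73.5, 78.1, 70.6 and 71.7 CPM. Crtap (chromosome 9, 114375134 to 114390675), the non-catalytic partner of prolyl 3-hydroxylase, stood at 179, 217, 118, 151 and 149 CPM. These levels were close between animals with the widest relative spread in Crtap. Outside the cell, Bmp1 (chromosome 14, 70474558 to 70520234) is the procollagen C-proteinase and Pcolce (chromosome 5, 137605103 to 137613784) the glycoprotein that enhances it. Bmp1 measured 164, 151, 145, 162 and 165 CPM and Pcolce 917, 968, 893, 722 and 770.3 CPM. Exons of Plod2, Fkbp10 and Pcolce overlap other genes, Gm38391, Nt5c3b and Gm36266 on the opposite strand and Fbxo24 on the same strand as Pcolce; whether counting used strand is not given, so these 3 counts are uncertain to that extent.

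**Figure D1:**
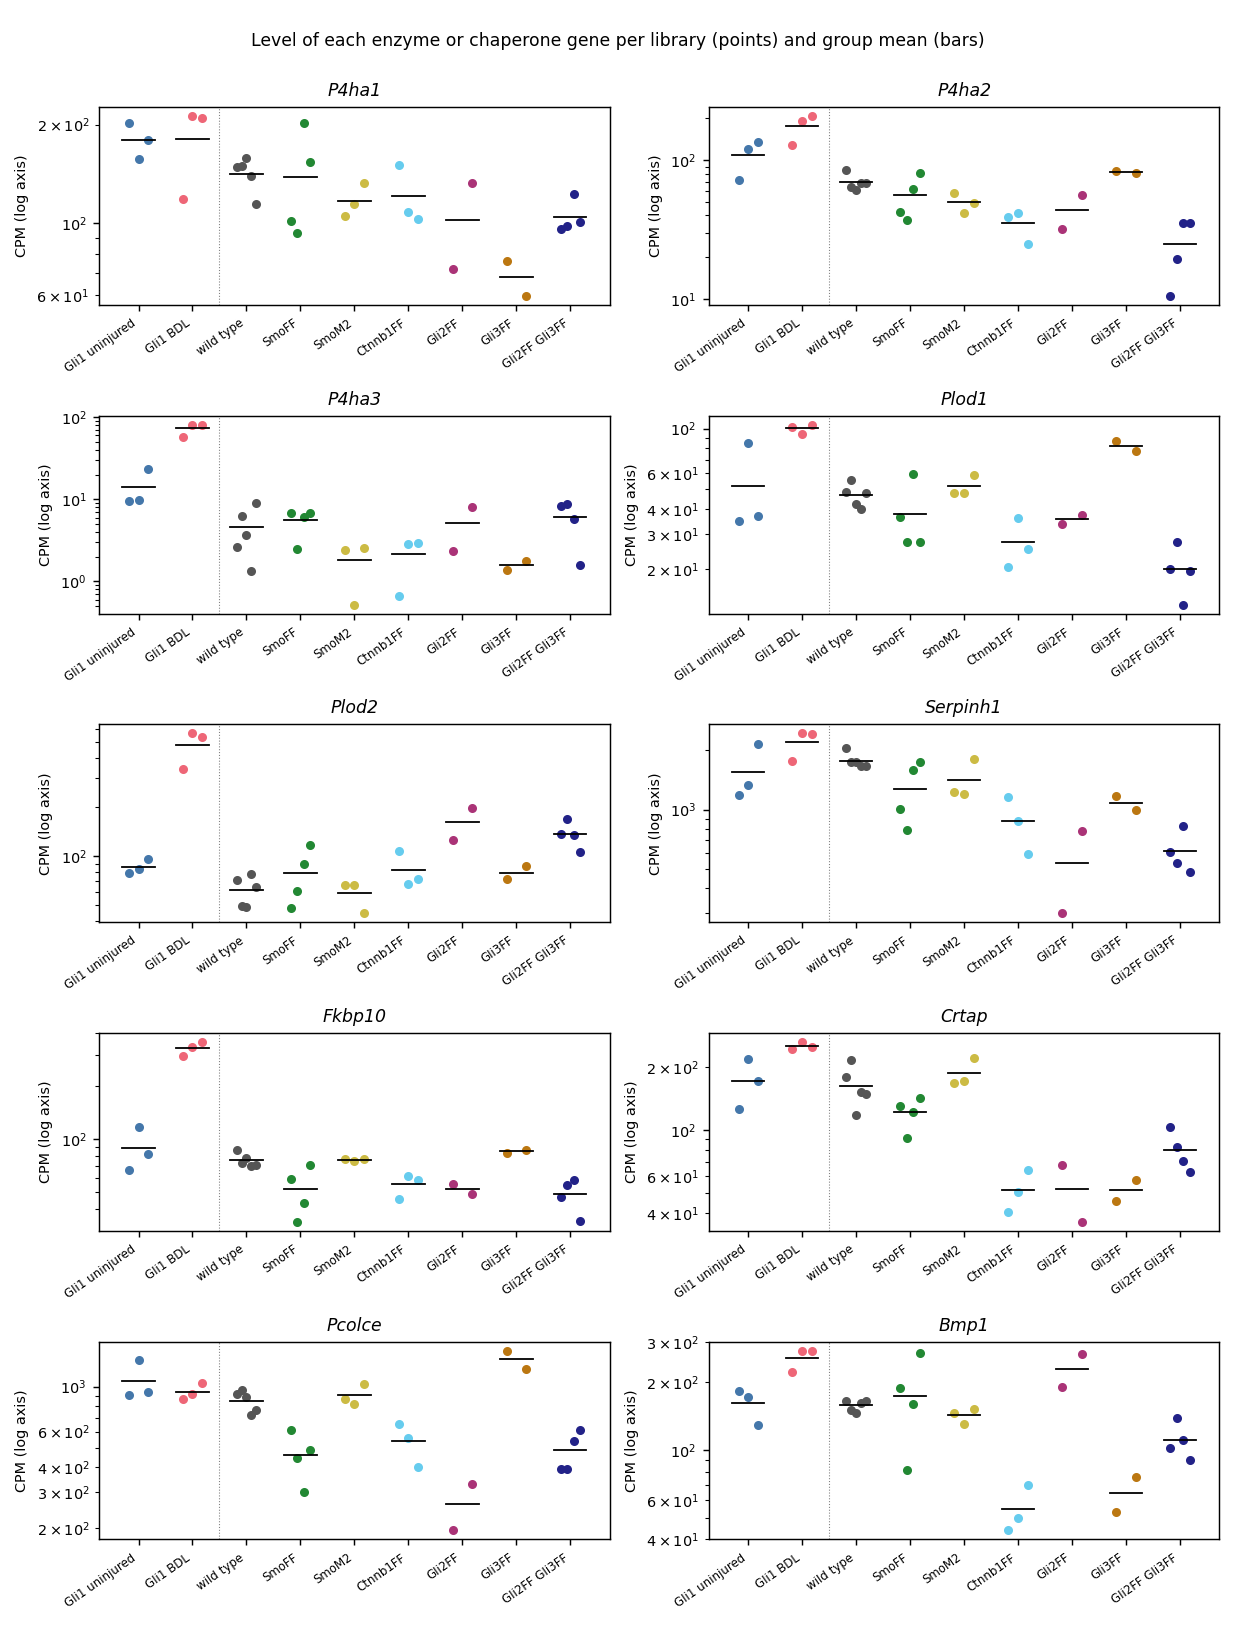
Level of each of the 10 genes in CPM (log axis) by group, 1 point per library with the group mean as a bar; Gli1 and Pdgfra libraries were scaled separately. Plod2, Fkbp10 and P4ha3 stand higher in the ligated group than in the uninjured group without overlap, and Serpinh1 and Crtap lie below wild type in Gli2FF, Gli3FF and Gli2FFGli3FF.

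The first comparison asked how ligation changed Gli1-traced cells. Plod2, Fkbp10 and P4ha3 rose, by 5.6-fold, 3.7-fold and 5.2-fold, and none of the 10 fell. Plod2 rose from 78.4, 83.5 and 96.2 CPM in the uninjured animals to 342, 565 and 538 CPM. Every ligated library lay far above every uninjured one. Fkbp10, whose product works with Plod2 on telopeptide lysines, rose from 66.7, 117 and 82.8 to 296, 332 and 357 CPM, and P4ha3 from 9.51, 9.74 and 23.2 to 58.0, 80.9 and 80.2 CPM. These groups did not overlap either.

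With Benjamini-Hochberg adjustment of edgeR's quasi-likelihood test over 17150 genes, Plod2 changed by 2.49 on the log2 scale (SE 0.24, adjusted p = 0.00292), Fkbp10 by 1.89 (SE 0.24, adjusted p = 0.00713) and P4ha3 by 2.37 (SE 0.42, adjusted p = 0.0188). Thus 3 of the 10 genes were called higher, where 7.77% of all genes tested were, and 0 lower, where 5.8% were. The median log2 change was 0.69 for the 10 and 0.07 for all genes. P4ha3 lost its call when any single ligated library was left out (adjusted p = 0.0512, 0.0962 and 0.0919 without replicates 1, 2 and 3), whereas Plod2 and Fkbp10 kept theirs under all alternatives run.

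The other 7 genes did not pass the test in ligated cells. Bmp1, at 182, 171 and 129 CPM uninjured, stood at 221, 276 and 274 CPM after ligation (log2 0.68, adjusted p = 0.069), passing under DESeq2 (adjusted p = 0.0151) and voom with quality weights (0.0368). Crtap (126, 218 and 171 against 244, 264 and 249.9 CPM) and Plod1 (34.7, 84.7 and 37.0 against 102, 94.2 and 105 CPM) were also higher in every ligated library than in every uninjured one, with adjusted p of 0.167 and 0.158, and Plod1 passed when 1 uninjured library, replicate 2, was left out (0.018). That made 6 of 10 genes higher without overlap, against 22.3% of all genes. The abundant genes of the 10 did not separate: Serpinh1 at 1184, 1339 and 2144 against 1760.4, 2441 and 2422 CPM (log2 0.51, adjusted p = 0.3), Pcolce at 909, 1358 and 944 against 872, 916 and 1039 CPM (−0.18, adjusted p = 0.656). P4ha1 had a log2 change of 0.00, with a 95% interval of −0.62 to 0.63, and P4ha2 one of 0.70 (adjusted p = 0.198).

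Set against their substrates, the enzymes rose less than the collagens did. The fibrillar collagen genes summed to 12730.1, 14231 and 10459 CPM in uninjured cells and to 72017, 68844 and 69844 CPM after ligation, 5.63-fold higher. The 10 genes, whose sum is mostly Serpinh1 and Pcolce, went from 2864, 3657 and 3941 to 4141, 5373 and 5483 CPM, 1.43-fold higher. Summed level per 1000 CPM of fibrillar collagen therefore fell from 225, 257 and 377 to 57.5, 78.0 and 78.5, with no overlap. Gene by gene the ratio to collagen in ligated cells was 6.38-fold lower for Pcolce, 5.70-fold for P4ha1, 3.52-fold for Bmp1 and 2.85-fold for Plod1. For Plod2 it was 1.03-fold lower and for P4ha3 1.17-fold lower, and there the groups overlapped. These ratios describe the libraries and were not tested.

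**Figure D2:**
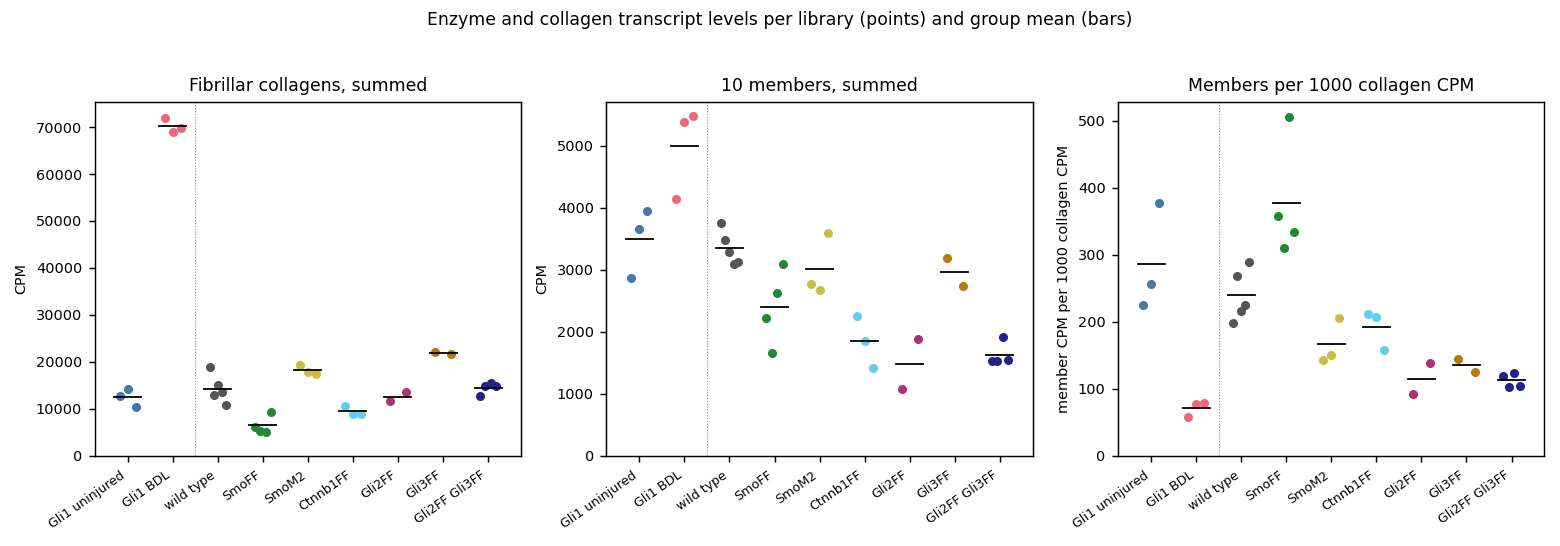
From left to right, summed CPM of the fibrillar collagens, summed CPM of the 10 genes (titled members) and the 10 genes per 1000 CPM of collagen, by group, with 1 point per library and the group mean as a bar. On the right the ligated libraries lie at 57.5 to 78.5 and the uninjured ones at 225 to 377.

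Of 23 other genes of collagen modification and folding that were tested, 7 rose and 0 fell after ligation, with a median log2 change of 0.57. They included Sparc, a collagen-binding glycoprotein (log2 1.74, adjusted p = 0.00256), P3h1, the catalytic partner of Crtap (48.8 to 73.0 CPM uninjured, 165 to 210 ligated, log2 1.59, adjusted p = 0.00885), Creb3l1, a transcription factor of secretory capacity (1.75, adjusted p = 0.0112) and the retrieval receptor Kdelr2 (0.93, adjusted p = 0.0131). Of 9 procollagen proteinases and their modulators, 3 rose and 1 fell. Furin, a proprotein convertase, rose by 1.85 (adjusted p = 0.00506) and Adamts2, the N-proteinase, by 1.62 (adjusted p = 0.00697), while Pcolce2, a paralog of Pcolce, fell from 486 to 845 CPM in uninjured cells to 21.5 to 32.7 CPM (log2 −4.52, adjusted p = 0.000879). Of 19 general chaperone and regulator genes of the endoplasmic reticulum 1 was higher, the chaperone Calr, and 1 lower, the transcription factor Xbp1.

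Markers of other mesenchymal cells moved in the same comparison. Of 13 smooth muscle and pericyte markers 6 rose and 0 fell, their sum going from 284 to 374 CPM uninjured to 5387 to 6302 CPM ligated, with Acta2 from 40.1 to 74.3 uninjured to 3527 to 4211 CPM ligated. Myh11 reached 107 to 226 CPM in ligated cells and at most 1.58 CPM in uninjured ones. Of 11 mesothelial markers 7 fell (sum 346 to 1490 against 84.7 to 128 CPM), and of 15 fibroblast identity markers 3 rose and 10 fell. Immediate-early genes, which respond to cell isolation, fell in 12 of 12. The part of these differences in the changes of Plod2, Fkbp10 and P4ha3 was not tested.

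**Figure D3:**
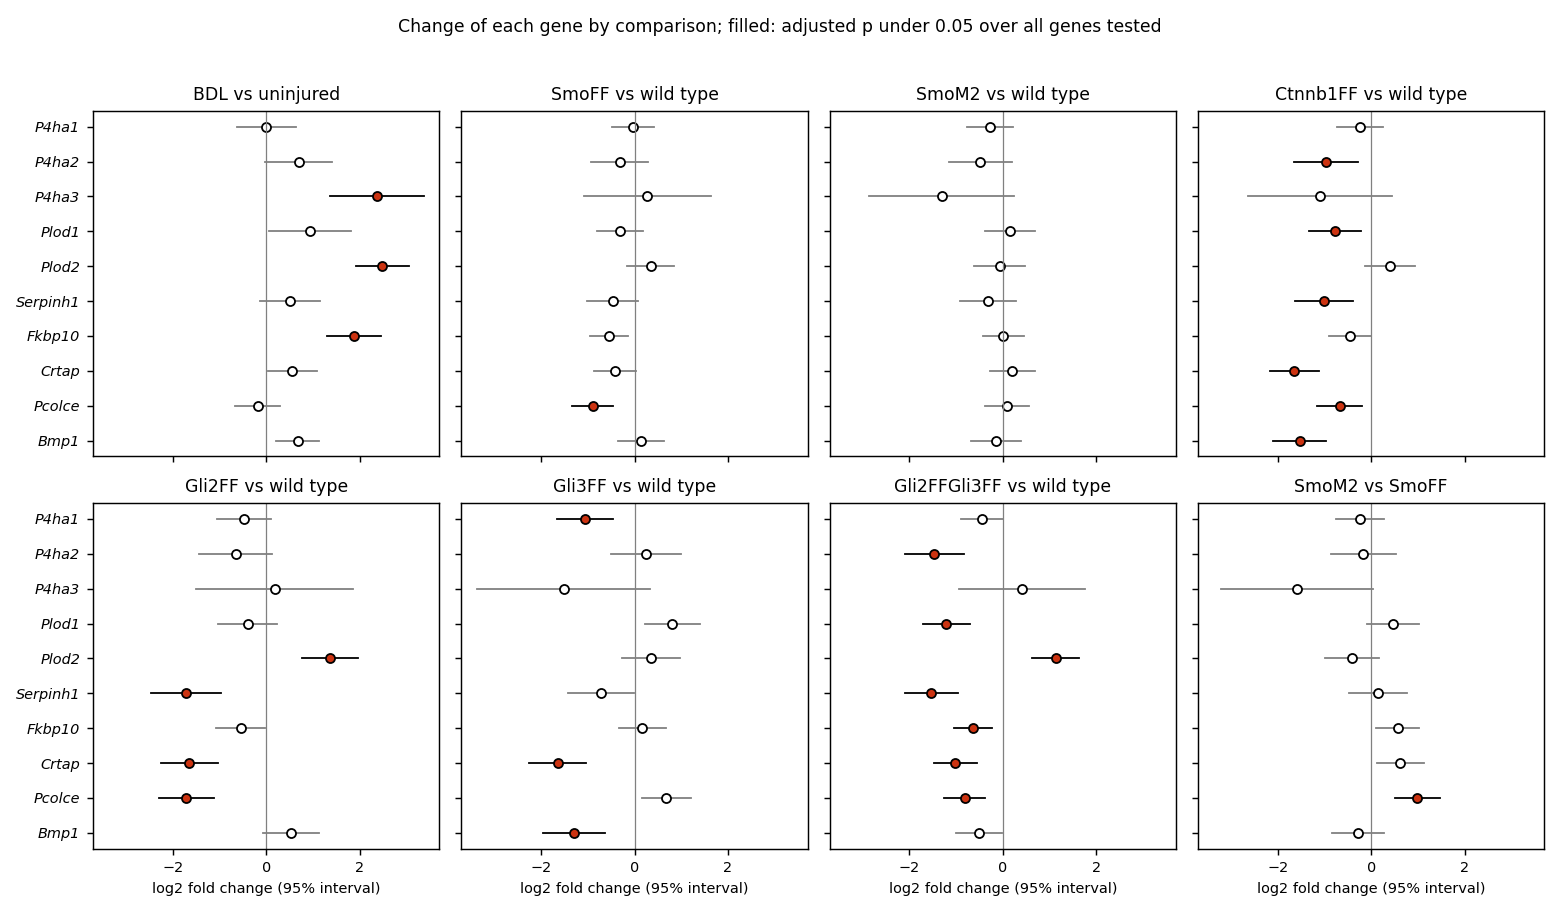
Log2 fold change of each of the 10 genes in 8 comparisons (points) with 95% intervals (lines); filled points passed an adjusted p of 0.05. Plod2 lies to the right of 0 after ligation, in Gli2FF and in Gli2FFGli3FF, whereas filled points of the other genes against wild type lie to the left of 0.

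The 6 comparisons of Pdgfra-traced mutants share the same 5 wild type libraries. Against wild type over these 6, Crtap and Pcolce were each called lower in 4, Serpinh1 in 3, P4ha2, Plod1 and Bmp1 in 2 each, and P4ha1 and Fkbp10 in 1 each. Plod2 was called higher in 2 and lower in 0, and P4ha3, which stood between 0.523 and 8.92 CPM in all 23 libraries, was called in none.

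Pcolce was lower in SmoFF cells. It stood at 608, 441, 301 and 486 CPM in SmoFF cells, every library below the lowest wild type value of 722. The log2 change was −0.90 (SE 0.21, adjusted p = 0.0315 by edgeR's quasi-likelihood test over 24383 genes), and 1 of 10 genes was thus called lower, against 1.26% of all genes, and 0 higher, against 0.287%. It was also the single gene of the 10 below wild type without overlap, where 2.76% of all genes were. This call was lost when only SmoFF and wild type libraries were fitted (adjusted p = 0.0761) and when the ribosomal RNA share was a covariate (0.063). Leaving out any of wild type replicates 1 to 3 or SmoFF replicates 2 to 4 ended it as well, with adjusted p between 0.0805 and 0.136, and against wild type replicates 4 and 5 alone it was 0.958.

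The other 9 genes did not pass the test in SmoFF cells. Fkbp10 at 59.0, 33.9, 43.5 and 70.9 CPM came nearest (log2 −0.56, adjusted p = 0.171), with its highest SmoFF library inside the wild type range. Bmp1 spread from 81.6 to 268 CPM among the 4 animals, against 145 to 165 CPM in wild type. The summed collagens were 2.20-fold lower than in wild type, and Col1a1 (log2 −1.42) and Col3a1 (−1.14) were among 4 of 11 that fell, so the enzymes per 1000 CPM of collagen were 1.57-fold higher, at 359, 309.9, 506 and 334 against 198 to 289.8. Of the 24 other modification and folding genes 0 were called in SmoFF cells by edgeR, with 1 higher and 9 lower at an unadjusted p under 0.05, where 5.65% and 9.28% of all genes were. Summed mesothelial markers stood at 571 to 1365 CPM in SmoFF and 164 to 405 CPM in wild type; their part in the Pcolce difference was not tested.

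No gene of the 10 was called in cells with active Smo. In SmoM2 cells 0 of 10 genes passed edgeR's quasi-likelihood test, 0 had an unadjusted p under 0.05 (3.88% of all genes were higher and 3.76% lower at that level), and 0 passed with DESeq2 or voom, where edgeR called 0.127% of all genes higher and 0.0779% lower. The Hedgehog targets Ptch1 (248 to 385 against 20.6 to 37.0 CPM) and Hhip (182 to 284 against 1.27 to 14.4 CPM) stood higher in the same libraries. The 95% intervals of the log2 change were widest for P4ha3, at −2.87 to 0.24, and narrow for Fkbp10 (−0.43 to 0.44), Pcolce (−0.38 to 0.56) and Crtap (−0.29 to 0.69). Only P4ha2, at 58.3, 41.5 and 49.0 CPM, lay below wild type without overlap, where 4.22% of all genes did, and its adjusted p was 0.917.

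Between active and deleted Smo, Pcolce differed. It stood at 866, 823 and 1035 CPM in SmoM2 against 301 to 608 CPM in SmoFF, a log2 difference of 0.98 (SE 0.24, adjusted p = 0.0248), with 1 of 10 genes higher against 1.74% of all genes and 0 lower against 0.89%. The same SmoFF libraries enter this and the preceding comparison. The call was lost with only these 2 groups fitted (0.0702) and without any one of SmoFF replicates 2 to 4 or of the SmoM2 replicates (0.066 to 0.107). Crtap and Fkbp10 also stood higher in every SmoM2 than in every SmoFF library, making 3 of 10 with Pcolce against 10.9% of all genes, but neither passed (adjusted p = 0.212 and 0.207). Collagen transcripts were 2.80-fold higher in SmoM2 than in SmoFF, and the enzymes per collagen 2.27-fold lower.

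Ctnnb1FF cells had less of the proteinase Bmp1 and of Crtap than any wild type library, together with smaller falls in P4ha2, Plod1, Serpinh1 and Pcolce. Bmp1 stood at 43.8, 49.7 and 70.1 CPM against 145 to 165 CPM in wild type. Crtap stood at 40.5, 50.6 and 64.4 CPM against 118 to 217 CPM. Neither gene overlapped between groups, and the falls were 2.89-fold and 3.13-fold.

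By edgeR's quasi-likelihood test Crtap changed by −1.65 on the log2 scale (SE 0.25, adjusted p = 7.35e-05) and Bmp1 by −1.53 (adjusted p = 0.00039), and both calls held in 21 of 21 alternatives. In all 6 of 10 genes were called lower and 0 higher, where 11.9% and 8.04% of all genes were. Serpinh1, at 1158, 879 and 598 CPM, changed by −1.01 (adjusted p = 0.0192), P4ha2, at 39.2, 42.0 and 25.1 CPM, by −0.97 (0.0421), Plod1, at 20.7, 36.1 and 25.2 CPM, by −0.77 (0.0439) and Pcolce, at 650.4, 556 and 400.3 CPM, by −0.67 (0.0436). The median over all genes was itself −0.61 here, and −0.09 over the abundant genes, those whose log2 CPM averaged 3 or more. Relative to the median of all genes Crtap was at −1.04, Bmp1 at −0.92, Serpinh1 at −0.40 and Pcolce at −0.06.

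These 4 smaller falls depended on the processing. DESeq2 itself and voom with quality weights each called all 6 genes. In edgeR, P4ha2, Plod1 and Pcolce were not called with size factors of the DESeq2 kind (adjusted p = 0.0509, 0.0565 and 0.0604) or with upper quartile scaling. Nor were they called without any of wild type replicates 1 to 3, and Serpinh1 was lost without Ctnnb1FF replicate 2 (0.0948) or 3 (0.162). P4ha2 and Pcolce were also lost without any single Ctnnb1FF library and Plod1 without Ctnnb1FF replicate 1 or 3. Where a left-out library ended the call, adjusted p was 0.05 to 0.228 for P4ha2, 0.0523 to 0.267 for Plod1 and 0.069 to 0.311 for Pcolce. The Ctnnb1FF libraries had 15892 to 17726 detected genes against 21127 to 24483 in wild type, and the part of this in the result was not tested. P4ha1, P4ha3, Plod2 and Fkbp10 did not pass, though Fkbp10 was 1 of 7 genes below wild type without overlap, where 15.2% of all genes were. Plod2 stood at 107, 67.8 and 72.4 CPM, overlapping wild type.

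Among 24 other modification and folding genes 3 rose and 7 fell in Ctnnb1FF cells. P4hb, protein disulfide isomerase and the shared beta subunit of prolyl 4-hydroxylase, fell from 615 to 881 CPM to 303 to 418 CPM (log2 −1.01, adjusted p = 0.000649). P3h4, a member of a lysyl hydroxylase complex, fell by 1.62 (adjusted p = 6.13e-05), the galactosyltransferase Colgalt1 by 1.59 (0.000188) and Plod3 by 1.20 (0.0026). Those that rose were Fkbp7 (1.12), Tmem38b (1.09) and Ppib, the cyclophilin of the Crtap complex (1.03, adjusted p = 0.00467). Of 11 proteinases and modulators 3 fell, among them Sfrp2 by 3.36 and Adamts2 by 1.39. Of 11 fibrillar collagen genes 3 fell, and the enzymes per collagen overlapped wild type.

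Markers of other cells also differed in Ctnnb1FF. Of 11 mesothelial markers 3 fell and 0 rose, among them Wt1 (15.5 to 21.7 against 63.5 to 90.7 CPM) and Upk3b (0 to 9.52 against 14.0 to 81.7 CPM), and their sum stood at 23.7 to 194 CPM against 164 to 405 CPM. Of 9 endothelial markers tested Kdr, at most 2.34 CPM in wild type, fell (adjusted p = 0.0168). Their sum was 19.8 to 77.3 against 57.6 to 90.7 CPM. The wild type sum was mostly Tek, at 54.1 to 86.2 CPM, against 19.2 to 67.7 CPM in Ctnnb1FF. Vwf was at 0, against at most 2.21 CPM in wild type, and Cldn5 was at 0 in both groups. Of 13 smooth muscle and pericyte markers 4 rose and 2 fell (sum 359 to 629 against 266 to 401 CPM), with Cnn1 at 0, and of 15 fibroblast identity markers 1 rose and 6 fell. Their part in the falls of Bmp1, Crtap and the other 4 genes was not tested.

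Gli2FF cells, with only 2 animals, had lower Serpinh1, Pcolce and Crtap and higher Plod2. Serpinh1 stood at 298 and 779 CPM against 1662 to 2046 CPM in wild type. Pcolce stood at 194 and 329 CPM and Crtap at 67.9 and 36.3 CPM. Plod2 stood at 125 and 196 CPM against 48.9 to 78.0 CPM. Each of these lay outside the wild type range in both animals, though the 2 animals also differed from each other, most for Serpinh1 and Crtap.

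The log2 changes were −1.72 for Serpinh1 (SE 0.36, adjusted p = 0.00557), −1.71 for Pcolce (SE 0.29, adjusted p = 0.000974), −1.64 for Crtap (SE 0.30, adjusted p = 0.00198) and 1.37 for Plod2 (SE 0.29, adjusted p = 0.00561) by edgeR's quasi-likelihood test. That is 3 of 10 genes lower against 3.26% of all genes, and 1 higher against 2.58%. Without Gli2FF replicate 1 the calls of Serpinh1 (0.218) and Pcolce (0.0793) were lost, and without replicate 2 those of Plod2 (0.218) and Crtap (0.0644). Ribosomal RNA took 8.56% to 13.5% of counts in these 2 libraries, and with its share as a covariate Plod2 was not called (0.1). Against wild type replicates 4 and 5 alone Plod2 (0.186) and Serpinh1 (0.0965) were not called. Bmp1 was higher than any wild type library, at 191 and 265 CPM, without passing (adjusted p = 0.315). In all, 2 genes lay above and 6 below wild type without overlap, where 21% and 13.8% of all genes did.

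Of 24 other modification and folding genes 0 rose, 5 fell and 19 did not pass in Gli2FF, those that fell including P4hb (log2 −1.21, adjusted p = 0.00233), Kdelr2 (−1.23, adjusted p = 0.00299), Rcn3, a calcium-binding protein of the secretory pathway (−0.97, adjusted p = 0.0128), and Sparc (−0.72, adjusted p = 0.0441). The collagens did not follow, with 1 of 11 higher (Col24a1) and 0 lower. Summed collagen overlapped wild type, and the enzymes per 1000 CPM of collagen were 92.2 and 138. Hypoxia-inducible genes had 2 of 16 higher, Vegfa (1.99, adjusted p = 0.0122) and Egln1 (1.24, adjusted p = 0.0168). Of 15 fibroblast identity markers 7 were lower and 0 higher. Of 12 immediate-early genes 6 rose and 0 fell, among them Btg2 (376 to 447 against 31.7 to 91.3 CPM) and Nr4a1 (372 to 499 against 27.9 to 100.2 CPM), and their sum stood at 6279 to 7165 CPM against 2320.0 to 4374 CPM in wild type. The part of either list in the changes of Serpinh1, Pcolce, Crtap and Plod2 was not tested.

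Gli3FF cells, also from 2 animals, had lower P4ha1, Crtap and Bmp1. P4ha1 stood at 76.2 and 59.6 CPM against 115 to 158 CPM in wild type, Crtap at 45.9 and 57.7 CPM against 118 to 217, and Bmp1 at 52.7 and 75.4 CPM against 145 to 165. Both animals lay below every wild type library for all 3 genes. The log2 changes were −1.06 for P4ha1 (SE 0.29, adjusted p = 0.0352), −1.65 for Crtap (SE 0.30, adjusted p = 0.00157) and −1.30 for Bmp1 (SE 0.32, adjusted p = 0.0183), so 3 of 10 genes were lower against 2.36% of all genes and 0 higher against 2.09%. Leaving out Gli3FF replicate 1 ended all 3 calls (Crtap 0.077, Bmp1 0.333), and leaving out replicate 2 ended those of P4ha1 and Bmp1 (0.057). P4ha1 also lost its call without any of wild type replicates 1 to 3, with adjusted p of 0.0578 to 0.27 over these 5 left-out libraries.

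Pcolce and Plod1 stood apart from these in Gli3FF cells. Pcolce, at 1510.4 and 1223 CPM, lay above all wild type libraries, as did Plod1 at 86.7 and 77.1 CPM, without passing edgeR's test (adjusted p = 0.145 and 0.124). Both passed under DESeq2 (0.0495 and 0.0438) and with only the 2 groups fitted (0.047 and 0.0237). In all, 2 genes lay above and 4 below wild type without overlap, where 10.8% and 12.8% of all genes did. Of 24 other folding genes 4 rose, Sparc, Rcn3, Tmem38b and Fkbp7 (log2 0.90 to 1.25), and P3h4 fell by 1.07. Col1a1 (0.79) and Col1a2 (0.90) rose, and the summed collagens were 1.53-fold higher. Sfrp2, which has been described as a modulator of Bmp1 activity, fell by 7.41 on the log2 scale (adjusted p = 9.31e-08).

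Markers of other cells differed in the same 2 libraries. Of 11 mesothelial markers 4 fell and 0 rose, among them Wt1 (10.2 to 13.8 against 63.5 to 90.7 CPM), and the sum stood at 39.0 to 52.2 CPM against 164 to 405 CPM in wild type, with Krt18 and Muc16 at 0. Of 9 endothelial markers tested 2 fell, with a sum of 4.97 to 10.3 against 57.6 to 90.7 CPM. The wild type sum was mostly Tek, at 54.1 to 86.2 CPM, against 1.11 to 3.36 CPM in Gli3FF. Pecam1 and Kdr were at 0, against at most 3.17 and 2.34 CPM in wild type. Cdh5, Emcn and Cldn5 were at 0 in both groups. Of 13 smooth muscle and pericyte markers 2 rose (sum 641 to 710.3 against 266 to 401 CPM), with Cnn1 and Actg2 at 0, and of 15 fibroblast identity markers 1 rose and 5 fell. The part of these differences in the falls of P4ha1, Crtap and Bmp1 was not tested.

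In the combined deletion Gli2FFGli3FF, with 4 animals, Serpinh1, P4ha2, Plod1, Crtap, Pcolce and Fkbp10 fell and Plod2 rose. Serpinh1 stood at 608, 534, 828 and 483 CPM, less than the lowest wild type library at 1662. P4ha2 stood at 10.5, 19.4, 35.1 and 35.2 CPM against 60.9 to 84.7 CPM, and Plod1 at 20.2, 27.5, 13.4 and 19.7 CPM against 39.9 to 55.4 CPM. No library of either group crossed into the other. Crtap, at 104, 82.9, 71.1 and 62.7 CPM, and Pcolce, at 389.9, 394, 541 and 612 CPM, were likewise below all wild type libraries, as was Fkbp10 at 46.6, 54.8, 58.3 and 34.4 CPM. Plod2 stood at 137, 168, 135 and 106 CPM, above all wild type libraries.

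By edgeR's quasi-likelihood test the log2 changes were −1.53 for Serpinh1 (SE 0.27, adjusted p = 0.000431), −1.47 for P4ha2 (adjusted p = 0.00184), −1.21 for Plod1 (SE 0.25, adjusted p = 0.00149), −1.02 for Crtap (SE 0.22, adjusted p = 0.00278), −0.82 for Pcolce (0.0098) and −0.65 for Fkbp10 (0.0264), and 1.13 for Plod2 (SE 0.24, adjusted p = 0.00243). Thus 6 of 10 genes were lower against 9.56% of all genes, and 1 higher against 7.6%. Relative to the median of all genes Serpinh1 was at −1.18, P4ha2 at −1.11, Plod1 at −0.86 and Crtap at −0.67. Pcolce was at −0.47, Fkbp10 at −0.30 and Plod2 at 1.48 on that scale. Relative to the median of the abundant genes Crtap was at −1.03, Pcolce at −0.83 and Fkbp10 at −0.66. The falls of Serpinh1, P4ha2, Plod1 and Crtap held in 22 of 22 alternatives. Fkbp10 lost its call without wild type replicate 1 or Gli2FFGli3FF replicate 1, 2 or 4 (0.0612 to 0.109), and Pcolce without Gli2FFGli3FF replicate 1 or 2 (0.0768 and 0.0769). Against wild type replicates 4 and 5 alone Plod2 (0.083), Fkbp10 (0.177) and Pcolce (0.154) were not called. The ribosomal RNA share did not overlap between these groups, so a fit with it as a covariate cannot separate it from genotype. In that fit all 7 calls remained, as they did with abundant genes alone. P4ha1 (adjusted p = 0.153) and Bmp1 (0.135) did not pass, but did with only these 2 groups fitted (0.048 and 0.0236), which called 9 of the 10. In all, 7 genes lay below and 1 above wild type without overlap, where 10.7% and 8.75% of all genes did.

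Summed fibrillar collagen was 1.01 times wild type in the same cells and the groups overlapped, while single collagen genes lay on either side. Of 11, Col24a1 was called higher and Col1a1 lower (2392 to 2878 against 3185 to 5123 CPM, log2 −0.59, adjusted p = 0.0242). Without being called, Col5a1 lay below wild type in every library (179 to 250 against 288 to 402 CPM) and Col5a2 above it (460.0 to 602 against 315 to 451 CPM). The 10 genes together were 2.06-fold lower, so their level per 1000 CPM of collagen was 119.6, 103, 124 and 104, below the 198 to 289.8 of wild type. Of 24 other folding genes 5 fell and 3 rose. P4hb fell by 0.85 (379 to 441 CPM, adjusted p = 0.00151), Colgalt1 by 1.15 (0.0016) and Plod3 by 0.97 (0.00698), while Fkbp7 rose by 0.88 (0.00195) and Creb3l1 by 0.72 (0.0447). Of 19 general chaperone and regulator genes of the endoplasmic reticulum 0 rose and 3 fell, the transcription factor Xbp1 by 1.39. Hypoxia-inducible genes had 4 of 16 higher and 0 lower, including Egln3 (2.66, adjusted p = 0.0124) and Vegfa (1.53, adjusted p = 0.0111). Smooth muscle and pericyte markers summed to 420 to 816 CPM against 266 to 401 CPM in wild type, 5 of them higher, and 7 of 15 fibroblast identity markers fell; their part in these changes was not tested.

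**Figure D4:**
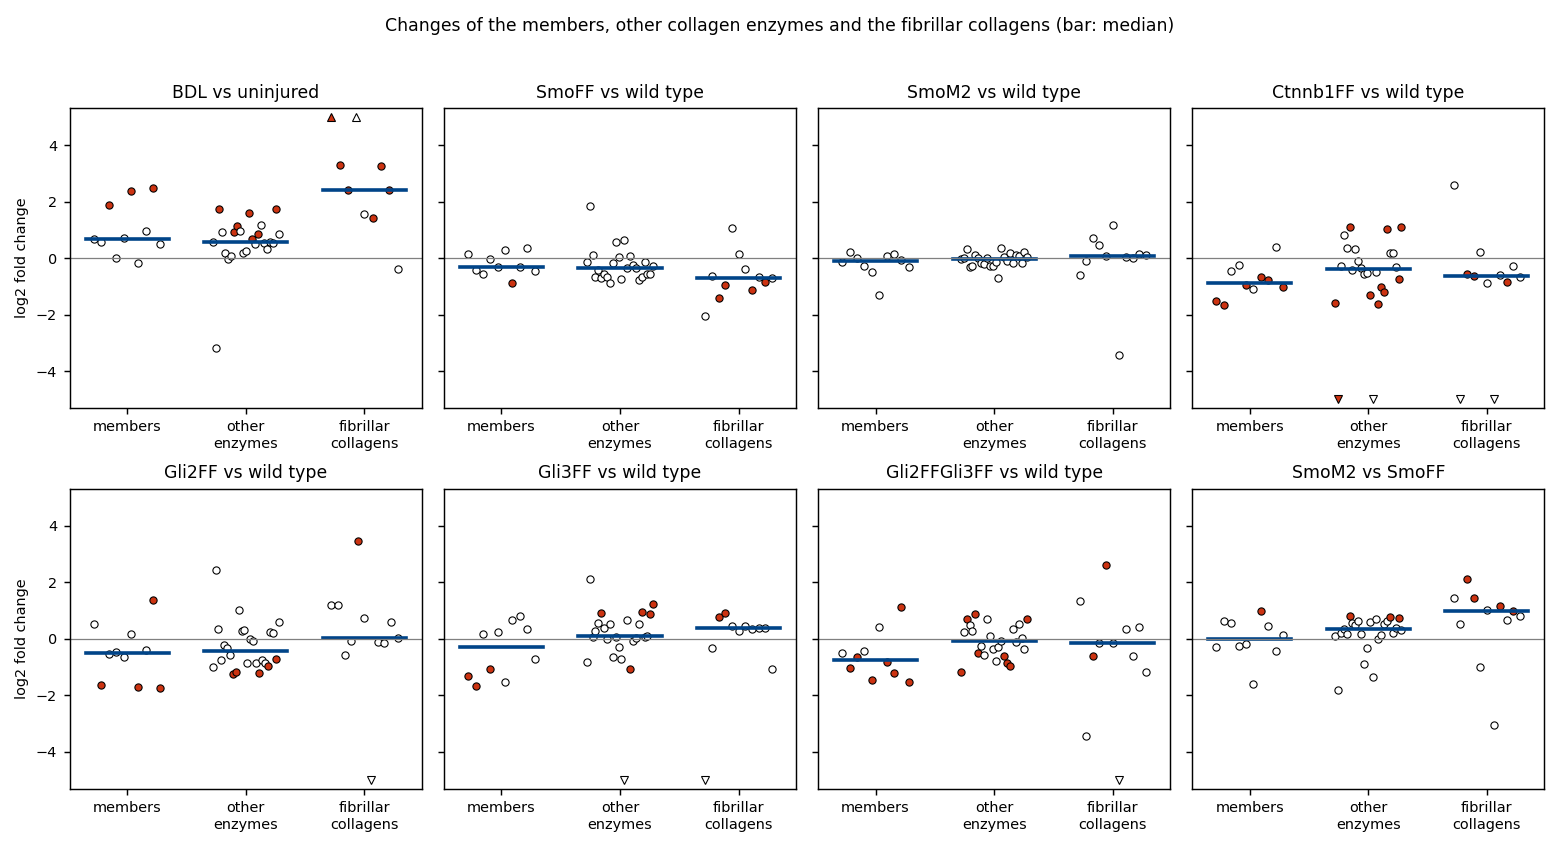
Log2 fold changes of the 10 genes (titled members), the other modification and folding genes and the fibrillar collagens by comparison, 1 point per gene (filled where called) with the list median as a bar; values beyond 5 in either direction are triangles at the edge. The fibrillar collagens stand highest after ligation (median 2.42), where the other modification and folding genes have a median of 0.57.

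The single and combined Gli deletions allow a test of whether their log2 effects add. Crtap and Plod1 departed from additivity, 1 upwards and 1 downwards of 10 genes, against 1.93% and 1.34% of all genes. Crtap was lower by 1.64 in Gli2FF and by 1.65 in Gli3FF, but only by 1.02 in the combined deletion, a departure of 2.27 (adjusted p = 0.00346 for the interaction term). Plod1 stood at 0.81 in Gli3FF and −0.40 in Gli2FF, neither called, and fell by 1.21 in the combined deletion, a departure of −1.62 (SE 0.42, adjusted p = 0.0355). The Crtap departure was lost only with ribosomal RNA as a covariate (0.0637), and that of Plod1 also without single libraries of any of the 4 groups, wild type replicates 1 and 3, either replicate of Gli2FF or Gli3FF, and Gli2FFGli3FF replicates 1 and 3 (0.0557 to 0.125). The departures of the other 8 genes did not pass.

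Across the 23 Pdgfra-traced libraries the 10 genes did not move as a block. Of their 45 pairs 29 had a positive Pearson correlation of log2 CPM, with a median of 0.22 and a range of −0.60 to 0.71. These values are descriptions over libraries that differ in genotype, depth and ribosomal RNA share. P4ha2 went most closely with Serpinh1 (0.71) and with Plod1 (0.66), and Fkbp10 with Pcolce (0.67). P4ha3 was positively correlated with 4 of the other 9, with a median of −0.02, and Plod2 with 2 of 9, with a median of −0.42. Plod2 was lowest with Pcolce (−0.60), Serpinh1 (−0.56) and Crtap (−0.56).

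**Figure D5:**
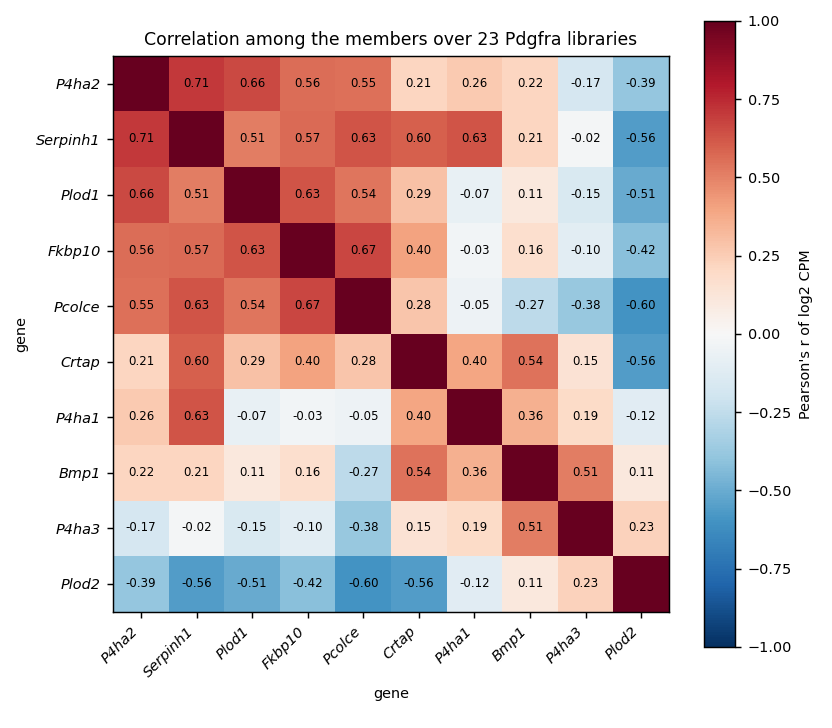
Pearson correlation of log2 CPM between the 10 genes over the 23 Pdgfra-traced libraries, with the value in each cell and a colour scale from −1 to 1. Plod2 has its lowest value with Pcolce, at −0.60, and the highest of all pairs is P4ha2 with Serpinh1, at 0.71.

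The genes whose pattern over the same 23 libraries was most like each of the 10 were taken among genes whose log2 CPM averaged 3 or more. For Serpinh1 they were Sec61a1 (0.903), the channel of the endoplasmic reticulum, Rpn1 (0.895), a subunit of the oligosaccharyltransferase, and Tuba1c (0.8865), a tubulin. For Pcolce they were Serpinf1 (0.949), Clec11a (0.946) and Bgn (0.889), which encode secreted proteins. For P4ha1 Parm1 came first (0.896), before the chaperone Hsp90b1 (0.862) and Sdf2l1 (0.816), both of the endoplasmic reticulum. For Fkbp10 the list held Pld3 (0.8455), Col6a2 (0.839), a chain of collagen VI, and Nucb1 (0.8157). For Crtap it held Eif3f (0.915), Anapc2 (0.8842) and Loxl1 (0.8841), a lysyl oxidase. Plod2 was most like Trip12 (0.873) and Xpo1 (0.852), Bmp1 like Gas7 (0.928) and Heg1 (0.888), Plod1 like Wipi1 (0.858) and Qsox1 (0.834), and P4ha2 like Svep1 (0.869). P4ha3, the least abundant, had no gene above 0.675 (St3gal1).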

How the data were processed

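RNA from about 1000 sorted cells per duct was made into libraries by a Smart-seq3 protocol with Smart-seq2 primers, per the labels' protocols, and each matrix holds raw counts per gene as deposited by the authors, without molecular identifiers counted. The submitters' processing notes name mm10 as the build. The aligner, counter, annotation and strand setting are not given in the labels. Replicates are individual animals, per the labels. Library totals ran from 15021796 to 38301189 counts, and P4ha3 had the fewest counts of the 10 genes. All symbols were kept (55401 rows), and gene positions were taken from GENCODE M21.

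The Gli1 (6 libraries, 17150 genes after filterByExpr) and Pdgfra (23 libraries, 24383 genes) sets were fitted separately with edgeR 4.0.16 in R 4.3.3: TMM scaling, a quasi-likelihood fit over all groups of a set, and Benjamini-Hochberg adjustment over all genes tested; a gene was called at an adjusted p under 0.05. CPM use TMM effective library sizes, levels between genes are divided by the exon length, and intervals are 95% from edgeR's standard errors with their own degrees of freedom. Alternatives were DESeq2 1.42.0, limma 3.58.1 with voom and quality weights, other scalings (RLE, the DESeq2 kind, and upper quartile), another filter or none, the ribosomal locus removed, only the groups compared, a replicate block, subsets of the wild type libraries (replicates 1 to 3, or 4 and 5), and each library left out. Using abundant genes only and the ribosomal RNA share as a covariate were chosen after seeing the data. Same-numbered libraries did not deviate together. The scripts were tested on simulated data in which 100 genes changed 2-fold, 100 changed 4-fold and all others were equal between groups. Of the 2-fold changes 1% were called for ligation, 17% for SmoFF, 8% for Gli2FF and 26% for Gli2FFGli3FF. Of the 4-fold changes 35%, 77%, 48% and 78% were called. Fewer genes changed in the simulation than were called in the real comparisons, which makes the adjustment stricter there. These shares are therefore not the power of the real comparisons. A gene that did not pass is not shown to be unchanged.

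The 10 genes, the gene lists and the tests were chosen with earlier results of these data known. All 10 genes are reported. From each other list the text names genes with the smallest p among those called, at most 4 per direction, and the genes most like each of the 10 are the 3 with the highest correlation, of which some are printed.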

Additional observations from a re-analysis of the deposited data

Results flagged for a closer look

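In SmoFF cells P4ha3 was low in 1 of 4 animals: replicate 2 stood at 2.46 CPM and the others between 6.06 and 6.81 CPM, a gap large for the range of a group of that size. In wild type cells Serpinh1 was high in 1 of 5 animals, with replicate 1 at 2046 CPM and the others between 1662 and 1750.2 CPM. Chance alone marks about 1 in 20 groups in this way, and 2 of 30 groups were marked here.

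The effect of Gli3 deletion differed with the state of Gli2 for 2 genes by the interaction test, with departures from additivity of 2.27 on the log2 scale for Crtap and −1.62 for Plod1. Each single deletion rests on 2 animals.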

How the results depend on the processing

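Over the 10 genes, all comparisons and the alternatives in which each was tested, 1822 values were recomputed: 1709 kept direction and side of the threshold, 101 lost their call, 12 gained one and 0 reversed. The number of the 10 genes called moved as follows. Scaling by RLE or upper quartile left 3 of 6 in Ctnnb1FF. With only the groups compared, SmoFF gave 0 in place of 1, SmoM2 against SmoFF 0 in place of 1, Gli3FF 5 in place of 3 and Gli2FFGli3FF 9 in place of 7; DESeq2 also gave 5 in Gli3FF. Against wild type replicates 4 and 5 alone, SmoFF gave 0, Ctnnb1FF 2, Gli2FF 2 in place of 4, Gli3FF 1 and Gli2FFGli3FF 4 in place of 7. With the ribosomal RNA share as a covariate, SmoFF gave 0 and the departures 0 in place of 2. Leaving out each library in turn gave 2 to 4 calls after ligation, 0 to 1 in SmoFF, 0 in SmoM2, 2 to 6 in Ctnnb1FF, 2 to 4 in Gli2FF, 0 to 3 in Gli3FF, 5 to 7 in Gli2FFGli3FF, 0 to 1 for SmoM2 against SmoFF and 1 to 2 departures; an arm left with 1 animal is assumed to vary like the other groups. The cause of these moves was not tested.

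No sign of pairing by replicate number was seen, over 3 same-numbered pairs in the Gli1 set and 55 in the Pdgfra set. Deviations of same-numbered libraries had correlations of −0.031 to −0.00172 in the Gli1 set and −0.397 to 0.221 in the Pdgfra set. For libraries of different number the ranges were −0.0236 to 0.0424 and −0.413 to 0.407. With the replicate number as a block, 3 of the 10 genes were called after ligation, 1 in SmoFF, 0 in SmoM2, 2 in Ctnnb1FF, 4 in Gli2FF, 1 in Gli3FF, 6 in Gli2FFGli3FF, 1 for SmoM2 against SmoFF and 1 departure.

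Counts over all genes moved more. They were 2326 after ligation (428 with the block, 3542 with DESeq2, 1493 with no filter, 377 at the lowest without 1 library), 377 in SmoFF (19 against wild type replicates 4 and 5, 1122 against 1 to 3), 50 in SmoM2 (1456 with voom, 17 at the lowest without 1 library), 4852 in Ctnnb1FF (3050 at the lowest without 1 library), 1423 in Gli2FF (5732 with voom, 179 at the lowest without 1 library), 1085 in Gli3FF (2372 with DESeq2, 319 at the lowest without 1 library), 4183 in Gli2FFGli3FF (2062 with the ribosomal covariate), 641 for SmoM2 against SmoFF (1626 with voom, 240 at the lowest without 1 library) and 797 departures (1920 with no filter, 181 with the ribosomal covariate). P4ha3 had the fewest counts of the 10 genes in every library, at 0.523 to 8.92 CPM in the Pdgfra set.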
